A study of Mus musculus with 6 samples.

Results

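Small leucine-rich proteoglycans are secreted matrix proteins built around a curved stack of leucine-rich repeats. They bind collagen fibrils, set their diameter and spacing, and hold growth factors in the matrix. In the eye they are best known from the corneal stroma and the sclera, where ordered collagen depends on them, and fibroblasts are a main source. Here 10 genes of this family were taken by gene symbol from the mouse RPE/choroid table, namely Dcn, Bgn, Lum, Fmod, Ogn, Kera, Prelp, Omd, Aspn and Epyc. All 10 were found among the 33924 genes of the table.

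The libraries were made from poly(A) RNA of RPE/choroid, the retinal pigment epithelium (RPE) with the vascular layer beneath it, scraped off the sclera of C57BL/6J mice. There were 3 young and 3 aged mice, described in the labels as male, and 2 eyes were pooled per sample. By the study's methods the cornea, lens, iris, eye muscles and neural retina had been taken off first. Young mice were 1 to 2 months old by the labels. Aged mice were 20 to 24 months old by the sample titles and 22 to 24 months old by the age field. The study's methods describe mice of both sexes and a somewhat older young group.

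For each gene the deposited table gives the authors' mean normalized count over all 6 libraries, and this is the value used here. It is a level averaged over young and aged mice together. Libraries are not listed one by one, so the levels stand without a spread between mice, and whether neighbouring genes in the order differ beyond that spread was not tested. The age difference of these genes was not analysed here, because the remaining columns of the table are the authors' own comparison of the groups and were not used. The means summed to 40816668 over all genes. The depth of single libraries is unknown, so no counting interval is given for a level.

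Seen by its RNA, the family in RPE/choroid was dominated by decorin and lumican. The 10 genes together held 0.352% of the summed mean normalized counts, and Dcn alone held 58.8% of that share. Lum held 17.4% of it, while Epyc held 0.338%. All 10 genes passed a minimum mean of 10 normalized counts, as did 18479 of the 33924 genes of the table. The lowest of the 10, Epyc, stood at 487. The median of the 10 genes was 6051, against a median of 212 over the 25517 genes with a mean above 0. Levels of different genes were compared per kb of transcript, using the longest protein-coding transcript of each gene. On this scale the 10 genes spanned a 251-fold range, and by mean normalized count a 174-fold range.

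Class I holds decorin and biglycan, which carry chondroitin or dermatan sulfate chains, and asporin, which lacks them. Dcn encodes decorin, which coats collagen fibrils, limits their lateral growth and binds TGF-beta. Its mean normalized count was 84651, and only 22 of the 33924 genes had a higher one. Per kb of transcript the level of Dcn was 48152, which was 4.71 times that of Lum, the next member. By mean normalized count Dcn was 3.38 times Lum. Bgn encodes biglycan, a close relative of decorin that can signal through Toll-like receptors 2 and 4 once it is released from the matrix. Its mean normalized count was 8075 and its level per kb was 3338. Dcn was 14.4 times as high on the scale per kb and 10.5 times by mean normalized count. Aspn encodes asporin, which has a stretch of aspartates and binds collagen and TGF-beta. Its mean normalized count was 4026 and its level per kb was 1729. Asporin thus had the lowest RNA level of the 3 class I members.

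Class II members are mostly keratan sulfate proteoglycans with sulfated tyrosines, and their levels ran from the highest after Dcn to among the lowest of the family. Lum encodes lumican, which spaces collagen fibrils and is needed for a clear cornea. Its mean normalized count was 25016 and its level per kb was 10219. Fmod encodes fibromodulin, a collagen-binding member known from tendon and sclera. Its mean normalized count was 9351 and its level per kb was 2997. The remaining class II genes were far below these. Prelp encodes a protein with a basic, heparin-binding end that links basement membranes to the connective tissue beneath them, and its mean normalized count was 1285. Omd encodes osteomodulin, known from mineralized tissue, and its mean normalized count was 966. Kera encodes keratocan, a keratan sulfate proteoglycan of the corneal stroma, and its mean normalized count was 829. Per kb of transcript these 3 genes lay close together, with 429 for Omd, 364 for Kera and 355 for Prelp.

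Class III was represented by a high and a low member. Ogn encodes osteoglycin, also named mimecan, a small member found in cornea, bone and vessel walls. Its mean normalized count was 9188 and its level per kb was 3581, the highest after Dcn and Lum. Epyc encodes epiphycan, known from growth plate cartilage. It was the lowest of the 10 genes on both scales, and its level per kb was 192.

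**Figure D1:**
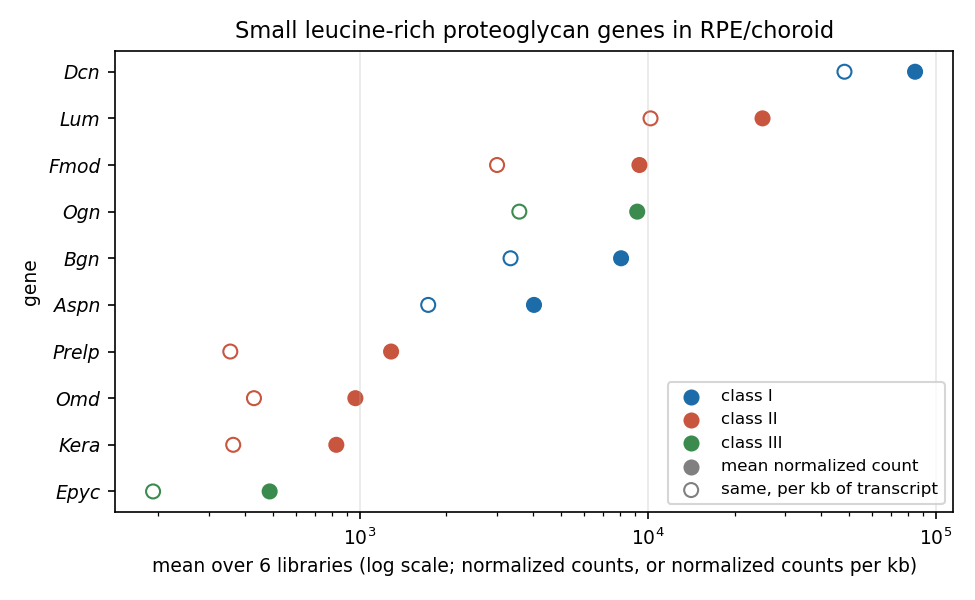
Each row is a gene, ordered by mean normalized count over the 6 libraries. Filled circles give the mean normalized count and open circles the same value per kb of transcript, both on a log axis, colored by class; Dcn stands at 84651 and Epyc at 487.

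The 10 levels fell into an upper group and a lower group. Among the 17876 protein-coding genes with a level per kb above 0, Dcn was at rank 27 and Lum at rank 221. Ogn, Bgn and Fmod followed at ranks 782, 845 and 952, and Aspn at rank 1710. The lower group began with Omd at rank 5735, then Kera at 6340, Prelp at 6435 and Epyc at 8669. After the step from Dcn to Lum, the largest step between neighbours lay between Aspn and Omd, a ratio of 4.03, and it divided the groups. By mean normalized count the step between the groups lay between Aspn and Prelp, a ratio of 3.13. Within the groups several neighbours were nearly equal, since Ogn was 1.07 times Bgn, Bgn was 1.11 times Fmod and Kera was 1.02 times Prelp on the scale per kb. By mean normalized count without division by length, the median percentile of the 10 genes among genes above 0 was 94.1, and their percentiles ran from 59.3 for Epyc to 99.9 for Dcn.

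**Figure D2:**
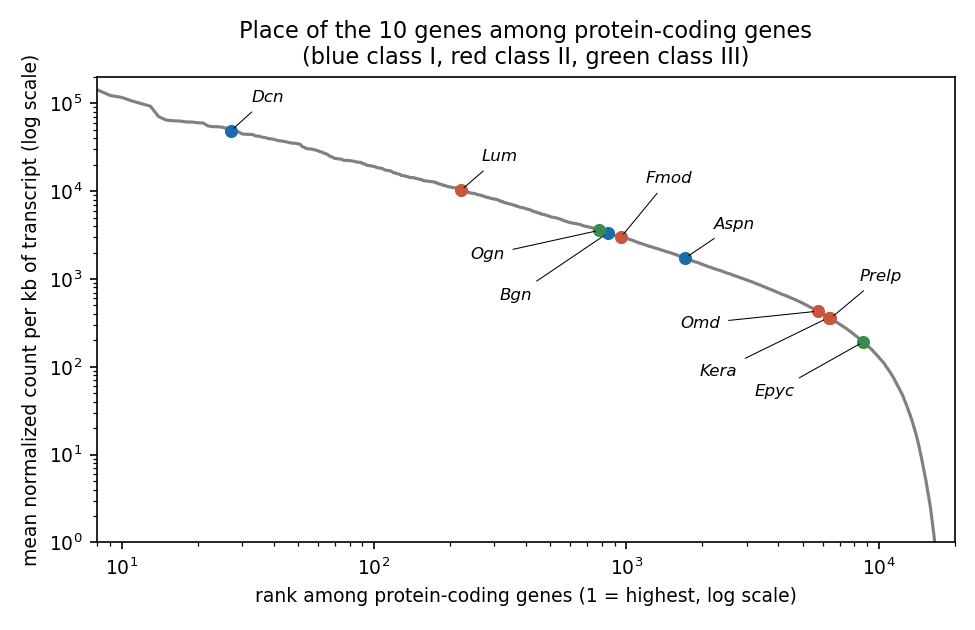
The grey line plots the mean normalized count per kb of transcript of protein-coding genes against their rank, both on log axes, and the points are the 10 genes. Dcn (rank 27) to Aspn (rank 1710) lie on the upper stretch, and Omd, Kera, Prelp and Epyc follow between ranks 5735 and 8669.

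How length enters these orders matters for close neighbours. Over the 15495 protein-coding genes with a mean of at least 10, the median mean normalized count was 735 among the 3104 genes with the shortest transcripts and 1026 among the 3098 with the longest. Level and length had a Spearman's rho of 0.08 across these genes, which are not independent replicates. The study's methods describe normalized counts made from a scale that divides by length (TPM). For its libraries made without poly(A) enrichment, the study also speaks of DESeq2 on read counts. Which of these the deposited means come from is not stated, so part of the length may already have been taken out. For that reason the levels of the 10 genes are given on both scales. Fmod stood above Ogn and Bgn by mean normalized count and below both per kb, and Prelp stood above Omd and Kera by mean normalized count and below both per kb. The places of Dcn, Lum, Aspn and Epyc were the same on both scales. The choice of transcript mattered for genes with a shorter coding isoform. With the shortest complete coding transcript the level per kb was 5130 for Bgn, 621 for Omd and 283 for Epyc.

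Of the 10 genes, 9 lie in 3 chromosomal clusters, and levels inside a cluster differed widely. Positions are from the GENCODE annotation of GRCm38. The cluster on chromosome 10 spans 202.8 kb and holds 4 members on the plus strand, Dcn from 97479609 to 97518143, Lum from 97565128 to 97572703, Kera from 97606879 to 97613692 and Epyc from 97644068 to 97682454. In this order the level per kb fell from gene to gene, from 48152 for Dcn to 10219 for Lum, 364 for Kera and 192 for Epyc. Dcn was thus 251 times as high as Epyc per kb, and 174 times by mean normalized count. The start of Epyc lies 164.5 kb from that of Dcn. A noncoding gene on the opposite strand, Gm10754, overlaps the end of Epyc and is listed at 0, and no row was matched for the noncoding gene 4930473O22Rik between Lum and Kera.

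The cluster on chromosome 13 spans 80.1 kb and holds Aspn from 49544443 to 49567565, Omd from 49582462 to 49592822 and Ogn from 49608046 to 49624501, all on the plus strand. Here the middle gene was the lowest, with levels per kb of 1729 for Aspn, 429 for Omd and 3581 for Ogn. All 3 genes lie within Cenpp, a centromere protein gene on the opposite strand, whose mean normalized count was 76.9. Ecm2, a related matrix gene, ends 11.7 kb before Aspn and had a level per kb of 371, from a mean normalized count of 1332.

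On chromosome 1, Prelp lies on the minus strand from 133910304 to 133921414 and Fmod on the plus strand from 134037254 to 134048277, with the noncoding gene Gm1627 and the pseudogene Gm18970 annotated between them, for which no row was matched. Fmod had a level per kb of 2997 and Prelp of 355. Optc, which encodes opticin, a class III member of the vitreous and ciliary body, lies 2.3 kb from Prelp. Optc lies on the side of Prelp away from Fmod. Its level per kb was 1007, between those of Prelp and Fmod. The antisense gene Gm15851, which overlaps Prelp, had a mean normalized count of 1.01. Bgn stands alone on the plus strand of chromosome X, from 73483602 to 73495933.

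**Figure D3:**
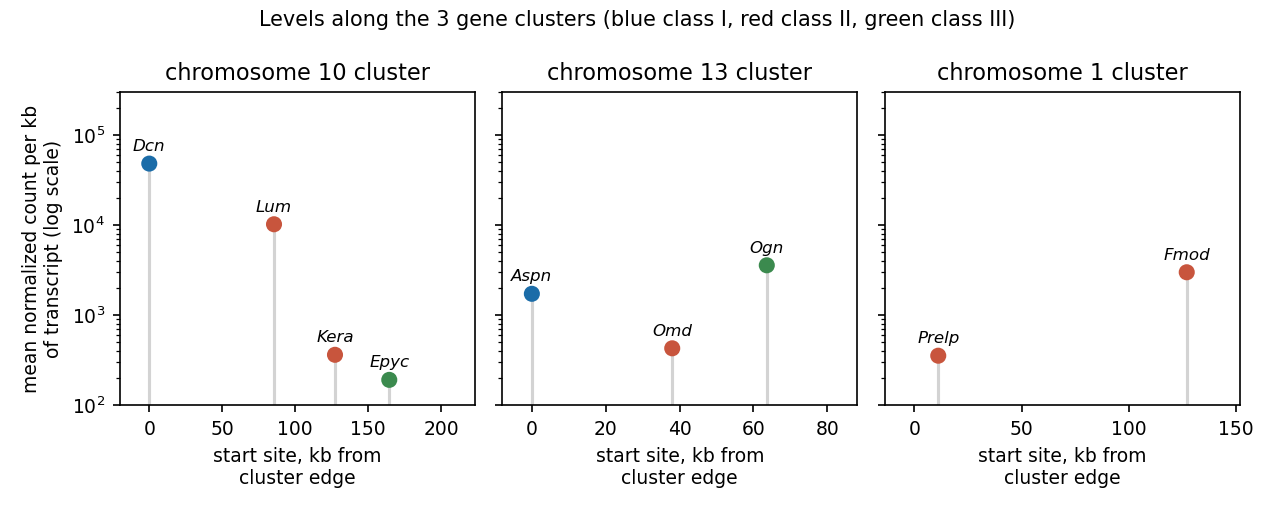
Each panel is a cluster, with the distance of each start site from the cluster's edge in kb on the x axis and the mean normalized count per kb of transcript on a log y axis. Levels fall along the chromosome 10 cluster from 48152 (Dcn) to 192 (Epyc), whereas the middle gene of the chromosome 13 cluster, Omd, is the lowest at 429.

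Because the genes descend from common ancestors, the coding sequences were compared to see whether reads could be divided between them. Over the 45 pairs, 53.0% to 66.2% of aligned bases were identical. The 14 pairs within a class had a median of 58.9% and the 31 pairs between classes a median of 56.7%. The most alike were Dcn and Bgn with 66.2%, followed by Ogn and Omd with 65.1%, which belong to different classes but to the same cluster. The least alike were Prelp and Aspn with 53.0%. No run of identical bases between transcripts of 2 members was longer than 17 bases, well under the length of a read. In 8 of the 10 genes every word of 50 bases was found in no other annotated gene in the same orientation. Reverse complements were not searched, so overlaps with antisense genes are not covered. The exceptions were Bgn with 99.7% and Omd with 96.2% own words, and none of the words they shared was with another of the 10 genes. Bgn shared 7 of its 2370 words, and these were found in many genes.

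**Figure D4:**
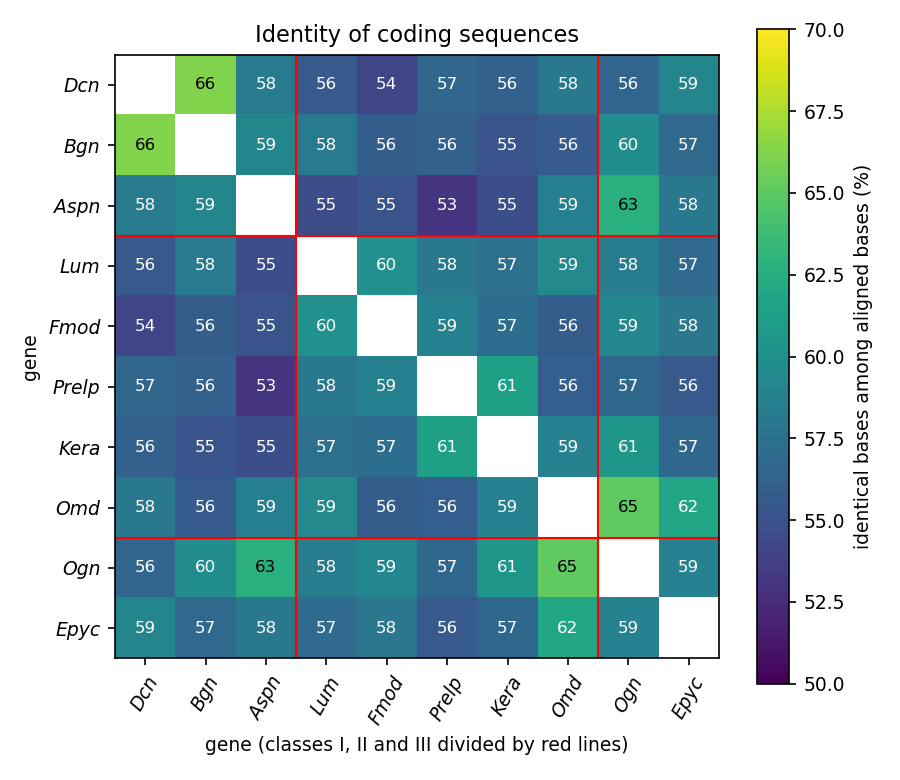
Each cell gives the identity of the coding sequences of 2 genes as the percent of identical bases among aligned bases, with red lines dividing classes I, II and III. The highest cells are Dcn with Bgn at 66.2% and Omd with Ogn at 65.1%.

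The longest shared coding runs are printed here because they show how short the stretches are that 2 members have in common. Each line gives part of the coding sequence from the GENCODE transcripts, 5′ to 3′ on the coding strand, with the shared run in capitals. The first pair is decorin and biglycan, at chr10:97513660-97513706 (plus strand, exon 7 of Dcn) and chrX:73493261-73493307 (plus strand, exon 7 of Bgn), with a run of 17 bases.

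Dcn: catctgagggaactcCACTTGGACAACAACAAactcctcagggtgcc

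Bgn: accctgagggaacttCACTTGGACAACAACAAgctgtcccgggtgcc

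The run lies at coding positions 808 to 824 of Dcn and 850 to 866 of Bgn, counted from the first base of the start codon, and in the same reading frame. Biglycan and fibromodulin, of classes I and II, share 15 bases at chrX:73492974-73493018 (plus strand, exon 6 of Bgn) and chr1:134040752-134040796 (plus strand, exon 2 of Fmod).

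Bgn: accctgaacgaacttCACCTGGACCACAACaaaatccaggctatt

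Fmod: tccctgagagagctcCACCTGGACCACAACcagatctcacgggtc

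Decorin and PRELP share 16 bases at chr10:97506494-97506539 (plus strand, exon 4 of Dcn) and chr1:133914489-133914534 (minus strand, exon 2 of Prelp).

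Dcn: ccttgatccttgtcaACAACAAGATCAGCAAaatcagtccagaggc

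Prelp: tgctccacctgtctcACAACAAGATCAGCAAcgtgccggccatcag

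Of the 45 pairs, 5 shared a coding run of at least 15 bases, and in each of them the run was in the same frame in both genes. Dcn and Epyc, the highest and the lowest gene of the chromosome 10 cluster, were identical in 59.1% of aligned bases.

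Among the other family members listed, only Ecm2 lay inside the range of the lower group per kb. Optc lay above that range, and the rest lay below Epyc. By mean normalized count both Optc and Ecm2 lay above the lower group. Of the 8 further genes listed, Optc was the highest on both scales, and its level per kb of 1007 lay above those of Omd, Kera, Prelp and Epyc. Ecm2, with a level per kb of 371, lay above Kera, Prelp and Epyc. The lowest per kb was Nyx, which encodes the retinal protein nyctalopin, with 18.3, whereas by mean normalized count Podnl1 was the lowest, with 53.5 against 94.9 for Nyx. Their median per kb was 88.1, against 2363 for the 10 genes. Summed over genes, the 10 members held 32.8 times the mean normalized counts of the 8 others, and Dcn made up most of that sum. Tsku, which encodes the secreted protein tsukushi, had a level per kb of 171, and Podn and Chad had 42.5 and 59.8.

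Collagens that these proteoglycans bind or order were abundant as well. Of the 10 collagen genes listed, Col1a2 and Col3a1 were the highest with levels per kb of 6960 and 6447, and Col5a1 was the lowest with 211. Dcn was 6.92 times as high as Col1a2 and 7.47 times as high as Col3a1 per kb. Without division by length these ratios were 2.27 and 2.36. Lum had a level per kb above each of the collagens listed, but by mean normalized count its 25016 lay below Col1a2 at 37221 and Col3a1 at 35872. The median of the collagens was 927 per kb and 6227 by mean normalized count, against 2363 and 6051 for the 10 proteoglycan genes. Col1a1 encodes the partner chain of Col1a2 in type I collagen. Its level per kb was 1010 and its mean normalized count 5990, both far below those of Col1a2. Why the chains differ was not tested, and no ratio of Dcn to Col1a1 was taken. Col12a1 and Col14a1, which encode fibril-associated collagens, had levels per kb of 843 and 574. Col6a1 had 1577.

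Enzymes that put sugar chains on the core proteins were each above a mean normalized count of 10. This is common, since 18479 of the 33924 genes had at least 10. Of the 6 enzymes that build the linkage to the core protein, B3gat3 had the highest level per kb, 1752, and Fam20b, a kinase gene, had 1141. By mean normalized count their order was the opposite, with 5172 for Fam20b and 2809 for B3gat3. Xylosyltransferase starts the chain, and of its genes Xylt2 had 529 and Xylt1 had 5.78. The 14 enzymes of chondroitin and dermatan sulfate had a median level per kb of 160. Among them were the polymerizing factor gene Chpf with 814, Csgalnact2 with 766 and the epimerase gene Dse, which makes dermatan from chondroitin sulfate, with 565. The 9 enzymes of keratan sulfate and tyrosine sulfation had a median of 372. Tpst1 and Tpst2, the tyrosine sulfotransferases, had 1011 and 680. B3gnt7, which extends keratan chains, had 18.9 and the sulfotransferase gene Chst5 had 157.

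Of the 8 proteases listed that are known to cut members of the family, Mmp3 (stromelysin 1) stood far above the rest, with a level per kb of 9463 and a mean normalized count of 17042. Htra1, a serine protease that cuts several of these proteins, had 2434, Mmp14 had 1558 and Mmp2 had 1011. Bmp1, which trims the propeptides of some members, had 549. Adamts4 had 20.2. Of the 13 binding partners listed, Itgb1 was the highest with 4982 and Itga2 the lowest with 5.01. Met and Egfr, receptors that decorin binds, had levels per kb of 1875 and 225. Tlr2 and Tlr4 had 284 and 266. Of the TGF-beta genes Tgfb3 had 1371, Tgfb2 had 369 and Tgfb1 had 55.3.

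**Figure D5:**
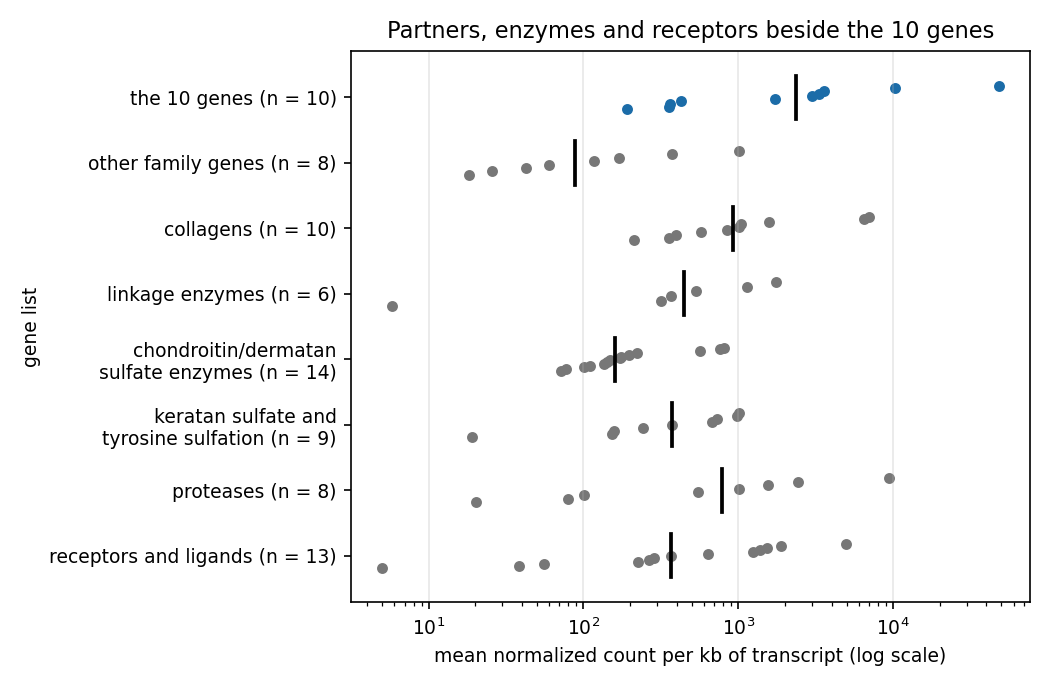
Each row is a gene list and each point a gene, placed by its mean normalized count per kb of transcript on a log axis, with a black bar at the list's median. The median of the 10 genes is 2363 and that of the other family genes 88.1.

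The tissue was checked against marker genes, since the choroid borders on other sources of these proteoglycans. Of 6 RPE markers, 5 were very high, among them Rpe65 with a mean normalized count of 113930 and Ttr with 397586, and Best1 was low with 81.8. Per kb, Dcn was 0.787 times Rpe65. Fibroblast markers were present, with Pdgfra at 5456, Fbln1 at 5160, Pi16 at 3595 and Dpt at 959 mean normalized counts. The 5 genes listed as melanocyte markers ran from 25408 for Mlana to 256984 for Dct. The RPE is pigmented too, so these pigment genes do not tell melanocytes from RPE. The 5 endothelial markers ran from 717 for Cdh5 to 7925.5 for Emcn. In bulk tissue fewer cells of a type and less RNA per cell cannot be told apart.

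Markers of other tissues were set beside several members, and no list covered the sclera. All 4 markers of corneal epithelium were detected, with mean normalized counts of 9815 for Aldh3a1, 8166 for Krt12, 6855 for Krt5 and 987 for Krt14, against 829 for the corneal stroma gene Kera. Per kb, Krt12 had 4409 and Kera 364. The 3 tendon markers were Tnmd at 3798, Mkx at 777 and Scx at 372, beside Fmod at 9351. The 5 cartilage markers ran from 43.1 for Acan to 3630 for Comp, with Col2a1 at 154, beside Epyc at 487. Of the 4 bone markers Ibsp was at 0.323, Bglap at 1.62, Runx2 at 117 and Sp7 at 172, beside Omd at 966. The 4 skeletal muscle markers held 0.409% and the 5 rod markers 0.614% of all counts, each more than the 10 proteoglycan genes. How much these tissues contributed to the members' levels was not tested.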

How the data were processed

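The libraries (3 young, 3 aged) were poly(A) libraries of RPE/choroid. By the study's methods, the authors used BBDuk for trimming, STAR for mapping to Ensembl GRCm38 transcripts and Sailfish for TPM, scaled to normalized counts by total count, and tested age with DESeq2. The signal used is the authors' deposited mean normalized count per gene over all libraries of both groups. The other deposited columns hold the authors' own age comparison (log2 fold change, its standard error, Wald statistic, p-value and adjusted p-value) and were not used, so no test was run. The members and lists were chosen with earlier results of these data known. Whether strand was used in counting is not given in the sources used here.

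Gene models and transcripts came from GENCODE M21 (GRCm38), a later release than the authors' annotation. Of the 18479 genes with a mean of at least 10, 83.9% matched a protein-coding model by symbol or by a RefSeq synonym. Levels per kb use the longest complete protein-coding transcript. A percentile is the percent of genes with a lower value. Coding sequences were aligned globally (match 2, mismatch -1, gap opening -5, extension -1). Words of 50 bases were searched in all transcripts, in the sense orientation only. Named genes were the 10 members, genes inside their clusters and the extremes of the fixed lists, and other list genes were chosen after their values were seen. Percentiles and alignment were tested on simulated data. Python 3.11.15, numpy 2.4.6, pandas 2.3.3, scipy 1.17.1, biopython 1.88 and matplotlib 3.10.9 were used.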

Additional observations from a re-analysis of the deposited data

How the results depend on the processing

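No paired analysis was possible because values of single libraries were not among those used here. For the same reason the planned edgeR fit, DESeq2 size factors, filter on low counts, leaving out each replicate and replicate block were not run.

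All 10 genes also had a mean of at least 1 and of at least 100. Passing these is common, since the median over genes with a mean above 0 was 212. Their share of all counts was 0.183% without the 100 genes of highest mean, which removes Dcn itself. When each mean was divided by transcript length, their share was 0.409% of the sum over the 20825 genes with a coding length. These genes hold 90.9% of all counts, so the set of genes differs as well as the scale. Their median percentile was 91.8 among genes with a mean of at least 10, 95.5 among all genes and 92.5 per length. Ranking among genes with a mean of at least 10 lowered the percentile of each of the 10 genes, by 0.03 to 15.5 percentage points, since low genes leave the ranking. With coding length in place of transcript length, 6 of the 10 genes kept their place in the order, and with no division by length, chosen after seeing the data, 4 did. Dcn, Lum, Aspn and Epyc kept theirs under both. The spread between mice is unknown, so close neighbours in the order cannot be separated.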
